A study of Mus musculus with 15 samples.

Results

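Chromatin regulators add, remove or read marks on histones or move nucleosomes, and Mediator is the large complex that carries signals from DNA-bound transcription factors to RNA polymerase II. The genes described here were taken by name. The families searched were the histone methyltransferases (Kmt, Setd), demethylases (Kdm), acetyltransferases (Kat, Ep300, Crebbp) and deacetylases (Hdac), the remodellers (Chd, Smarc, Arid), the bromodomain genes (Brd), the nuclear receptor cofactors (Ncor, Ncoa), the DNA methylation genes (Dnmt, Tet) and Mediator (Med). Of the 4178 genes with values, 20 carried such a name. The 13 chromatin regulators were Kdm5b, Kdm5c, Kat7, Hdac1, Hdac7, Ncoa4, Smarca4, Smarcb1, Smarcd2, Smarca5, Brd7, Brd8dc and Chd1l, and the 7 Mediator subunits were Med10, Med15, Med16, Med21, Med28, Med30 and Med31. Genes of the families Kmt, Setd, Arid, Ncor, Dnmt and Tet, and Ep300 and Crebbp, are not analysed here.

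RNA of the ileum, the last stretch of the small intestine, was sequenced in adult germ-free C57BL/6 mice, for which no mutant allele is given. The RG mice carried only Ruminococcus gnavus, a Clostridia-class gut bacterium, and the LGG mice only Lactobacillus rhamnosus GG, a probiotic strain. The PBS mice had been given sterile saline and no bacteria. Every mouse was gavaged with 200 µl, ileum was collected 21 days later, and each of the 3 groups held 5 mice with 1 library each.

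In an active gene, a tail module of Mediator (with Med15 and Med16) meets the transcription factor, while the middle module (with Med10, Med21 and Med31) and the head module (to which Med28 and Med30 are assigned in animals) meet the polymerase. Chromatin regulators work on the nucleosomes that cover the same genes. In the intestinal epithelium, which is renewed continuously from stem cells in the crypts, such factors are known to take part in the switch from dividing to absorptive and secretory cells.

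Values were TPM, transcript levels per length of transcript scaled so that all genes of a library would sum to 1000000, so levels may be compared between genes. They hold no read depth, which is therefore unknown. The listed genes summed to 58.7 to 66.1% of all TPM in RG libraries, 48.0 to 52.5% in LGG libraries and 58.6 to 65.5% in PBS libraries. Of the 4178 genes, 3530 reached the level needed for testing, among them 19 of the 20 named above. The listed genes were split by the LGG difference: 1447 of the tested genes were below 0.2 on the log2 scale for LGG against PBS, 1960 were at 1.0 or above, and 123, or 3.48%, were in between. How the genes of the table were chosen is not stated in the sources used here, so each share of called genes below is a share of these listed genes and not of the transcriptome. If they were chosen on the LGG difference, its sizes and adjusted p-values carry that choice as well. Of 13 genes listed as markers of ileal epithelium, 7 had values: Cdx2, Epcam, Cdh17, Vil1, Krt20, Slc51a and Gata4. These 7 summed to 3971 ± 686 TPM in RG mice, 9315 ± 440 in LGG mice and 2623 ± 555 in PBS mice (SD, n = 5). Gata4, which was not tested, was at 33.7 TPM in LGG mouse 2 and at 0.353 to 2.92 TPM in the remaining LGG mice. Lactase (Lct) was at 489 TPM in LGG mouse 2 and at 3.32 to 87.5 TPM in the remaining LGG mice. Whether the stretch sampled was the same in all mice was not tested. The bile acid genes Fabp6, Slc10a2 and Fgf15 on that list are not analysed here.

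In the ileum of LGG mice, 11 of the 12 tested chromatin regulators were higher than in PBS mice, beside 54.7% of all genes tested. None of them was lower, beside 16.5%. Shares among listed genes of like length are given below. Mediator was split. Its tail subunits Med15 and Med16 were higher, its subunits Med21, Med31 and Med28 were lower, and Med10 and Med30 did not pass. In all, 13 of the 19 tested genes were higher, beside 54.7% of all genes tested, and 3 were lower, beside 16.5% of all genes tested, so that 16 changed in either direction, beside 71.2%. The 13 that rose did so by 1.13 to 1.43 on the log2(TPM + 1) scale. The median difference of the 19 was 1.21 and that of all genes tested was 1.17, so neither the counts nor the median set these genes apart from the listed genes as a whole. In each of the 16 called genes the 5 LGG values and the 5 PBS values did not overlap, as was the case for higher values in 53.0% and for lower values in 14.9% of all genes tested.

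**Figure D1:**
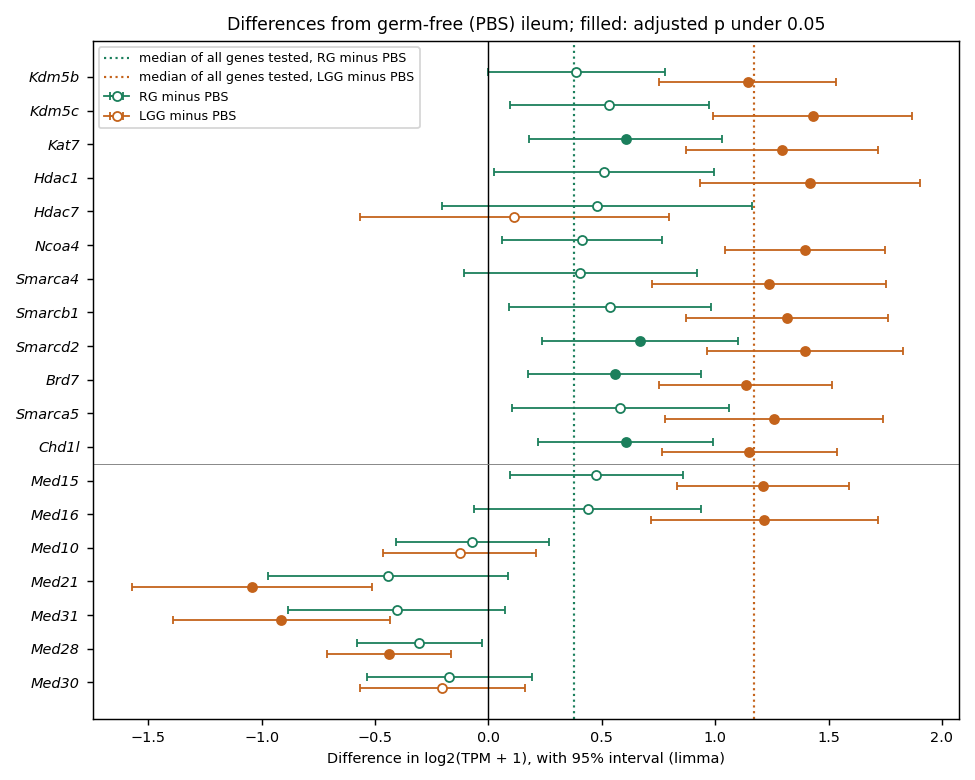
Difference of RG (green) and LGG (orange) from PBS on the log2(TPM + 1) scale, with 95% intervals from limma, for the 12 tested chromatin regulators and the 7 Mediator subunits. Filled points passed an adjusted p of 0.05, and dotted lines mark the medians of all genes tested, 0.38 for RG and 1.17 for LGG; the 13 genes that rose in LGG lie near the LGG line and the 5 small Mediator subunits lie to the left of 0.

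The lysine demethylases Kdm5b and Kdm5c remove methyl groups from lysine 4 of histone H3, a mark of active promoters. Kdm5c, on the X chromosome (152233020 to 152274535), was at 14.7, 24.7, 14.4, 15.2 and 26.3 TPM in the 5 RG mice, 30.2, 31.6, 29.5, 54.8 and 34.6 TPM in the LGG mice and 13.9, 10.3, 10.3, 14.95 and 13.2 TPM in the PBS mice. Every LGG mouse was above every mouse of the other groups. The LGG difference of 1.43 (SE 0.207, 95% interval 0.99 to 1.87, limma adjusted p = 8.69e-06) was the highest among the 19. Kdm5b was the less abundant of the pair, with 4.23 ± 1.08 TPM in RG, 7.88 ± 2.14 TPM in LGG and 2.95 ± 0.371 TPM in PBS (SD, n = 5), and it rose by 1.14 in LGG (adjusted p = 2.72e-05). The log2 ratio of Kdm5c to Kdm5b within a mouse was 2.15 ± 0.135 in RG, 2.20 ± 0.182 in LGG and 2.08 ± 0.174 in PBS, so the proportion of the pair differed little between the groups.

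Kat7 encodes an acetyltransferase of histones H3 and H4. It was at 9.52, 18.2, 11.3, 9.81 and 15.8 TPM in RG mice, 18.7, 16.8, 20.1, 32.4 and 19.0 TPM in LGG mice and 8.32, 7.96, 6.10, 9.34 and 8.02 TPM in PBS mice. The LGG and RG values overlapped and both lay above the PBS values. Its LGG difference was 1.30 (SE 0.200, adjusted p = 1.69e-05).

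Of the 2 histone deacetylases, Hdac1 rose and Hdac7 did not pass. Hdac1, the catalytic subunit of several corepressor complexes, is on chromosome 4 (129516104 to 129542713) and had the highest mean of the chromatin regulators in each group. It was at 39.8, 81.4, 49.4, 38.8 and 35.0 TPM in RG mice, 70.6, 64.9, 86.2, 137 and 98.9 TPM in LGG mice and 40.8, 34.2, 26.7, 32.2 and 29.6 TPM in PBS mice. The LGG values were all above the PBS values, by 1.42 on the log2 scale (SE 0.229, adjusted p = 2.67e-05). Of the 31-base words of its longest transcript, 60.7% also occur in the processed pseudogene Gm10093, and how the authors counted such reads is not given in the sources used here.

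Hdac7, a class IIa deacetylase studied mostly in vessels and thymocytes, was the exception among the chromatin regulators. It was at 2.14, 11.0, 1.84, 2.58 and 5.36 TPM in RG mice, 2.79, 1.83, 3.35, 3.14 and 2.57 TPM in LGG mice and 2.67, 1.65, 2.02, 3.53 and 2.50 TPM in PBS mice. The 3 groups overlapped, and 1 RG mouse stood far above the rest. The LGG difference was 0.11 (95% interval -0.57 to 0.80, adjusted p = 0.755), and that interval ended below the smallest difference among the other 11, 1.13. Only 3.48% of all genes tested lay between 0.2 and 1.0, so such a gap is shared by the listed genes and not particular to Hdac7. With median-of-ratios scaling, explained below, its sign turned to -0.62 (adjusted p = 0.0630).

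Ncoa4 encodes a nuclear receptor coactivator that also serves as the receptor for the breakdown of ferritin, the iron store. It was at 22.8, 42.3, 27.8, 22.3 and 30.3 TPM in RG mice, 50.4, 50.4, 57.0, 70.2 and 59.3 TPM in LGG mice and 20.7, 21.7, 17.2, 24.4 and 21.7 TPM in PBS mice. All LGG mice were above all other mice, and the LGG difference of 1.40 (SE 0.167) had the smallest adjusted p of the 19 (1.37e-06). Part of its transcript, 44.3% of the 31-base words, is shared with the processed pseudogene Gm6768.

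All 4 genes with a Smarc name rose in LGG. Smarca4 (Brg1) is the ATPase of SWI/SNF remodelling complexes, Smarcb1 and Smarcd2 are subunits of the same complexes, and Smarca5 is the ATPase of the separate ISWI family. Smarcd2, on chromosome 11 (106263179 to 106272972), was at 27.2, 56.4, 32.4, 23.7 and 30.8 TPM in RG mice, 47.1, 46.0, 53.8, 65.5 and 63.3 TPM in LGG mice and 23.1, 22.8, 14.2, 21.2 and 20.7 TPM in PBS mice. Both colonized groups were above the PBS values without overlap. Its LGG difference was 1.39 (SE 0.204, adjusted p = 9.56e-06). Smarcb1 was at 17.4, 36.7, 21.7, 17.8 and 16.8 TPM in RG mice, 32.9, 32.2, 33.9, 47.6 and 40.5 TPM in LGG mice and 19.0, 17.0, 10.4, 14.3 and 12.1 TPM in PBS mice, a rise of 1.32 in LGG. Smarca4 was at 8.62, 20.5, 9.75, 11.6 and 14.3 TPM in RG mice, 18.7, 17.1, 22.7, 37.0 and 22.6 TPM in LGG mice and 11.9, 7.70, 6.30, 12.1 and 8.78 TPM in PBS mice, a rise of 1.24 in LGG. For both genes the RG values overlapped with those of the other groups, and the LGG and PBS values did not overlap. The SWI/SNF subunits kept nearly the same proportions. The log2 ratio of Smarca4 to Smarcb1 was -0.77 ± 0.359 in RG, -0.70 ± 0.225 in LGG and -0.65 ± 0.334 in PBS, and that of Smarcd2 to Smarcb1 was 0.63 ± 0.165 in RG, 0.56 ± 0.0899 in LGG and 0.50 ± 0.184 in PBS. Smarca5 averaged 14.5 ± 5.66 TPM in RG, 23.2 ± 6.11 TPM in LGG and 9.11 ± 2.32 TPM in PBS and rose by 1.26 in LGG (adjusted p = 8.01e-05). It shares 29.1% of its 31-base words with the pseudogene Gm13135.

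Brd7, a bromodomain protein found in a SWI/SNF complex, and Chd1l, a remodeller that acts in DNA repair, were also higher in LGG. Brd7 was at 10.2, 18.8, 12.3, 10.7 and 12.7 TPM in RG mice, 16.1, 16.2, 19.1, 25.0 and 21.8 TPM in LGG mice and 9.73, 9.27, 6.00, 9.20 and 7.77 TPM in PBS mice. Chd1l was at 5.45, 9.83, 6.59, 4.66 and 5.66 TPM in RG mice, 8.83, 8.25, 8.23, 12.5 and 10.6 TPM in LGG mice and 3.85, 4.63, 3.42, 3.92 and 3.11 TPM in PBS mice. Both genes were higher in every RG and LGG mouse than in any PBS mouse. The LGG differences were 1.13 for Brd7 (adjusted p = 2.21e-05) and 1.15 for Chd1l (adjusted p = 2.15e-05). Brd8dc, the remaining bromodomain-named gene, was at 0.626 TPM or less in all 15 libraries and was not tested.

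**Figure D2:**
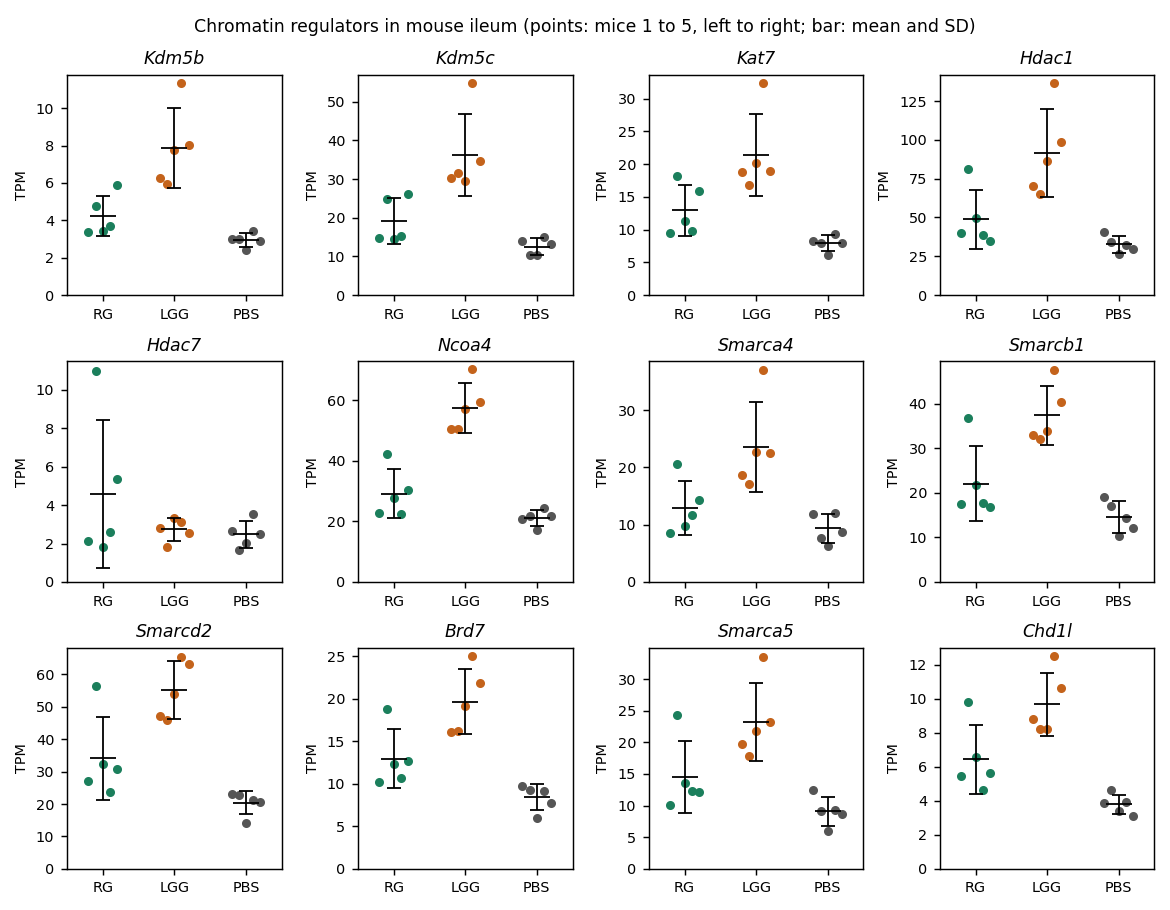
TPM of the 12 tested chromatin regulators in each mouse of the RG, LGG and PBS groups, with the mean and SD of 5 mice as bars and mice 1 to 5 of a group drawn from left to right. In 11 of the 12 panels all LGG points are above all PBS points, and Hdac7 is the exception, with 1 RG mouse at 11.0 TPM.

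Single animals set the top of most panels. RG mouse 2 was the highest RG mouse in 10 of the 12 chromatin regulators, LGG mouse 4 was the highest LGG mouse in 11 of 12 and PBS mouse 3 was the lowest PBS mouse in 9 of 12. RG mouse 2 also stood apart in the summed TPM of 10 T cell and leukocyte markers, at 833 against a median of 176 in the RG group, a median of 118 in LGG and a median of 104 in PBS. PBS mouse 1 was next at 316 TPM. The gene Jchain alone gave 334 TPM of the sum in RG mouse 2 and 286 TPM of that in PBS mouse 1. Its sum of the 3 listed markers of cycling and crypt cells was 55.4 TPM, while the remaining RG mice were at 22.0 to 30.3 TPM. The part of such cells in the values of RG mouse 2 was not tested.

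Among the Mediator subunits the 2 tail genes went with the chromatin regulators. Med15, the subunit that several activators bind (chromosome 16, 17651208 to 17732891), was at 13.6, 19.8, 13.4, 12.9 and 20.9 TPM in RG mice, 24.1, 23.1, 24.7, 37.8 and 27.1 TPM in LGG mice and 12.7, 9.32, 8.89, 13.6 and 11.4 TPM in PBS mice. All LGG mice were above all other mice. The LGG difference was 1.21 (SE 0.180, 95% interval 0.83 to 1.59, adjusted p = 1.09e-05). Med16, its neighbour in the tail (chromosome 10, 79894708 to 79908923), was at 6.21, 15.3, 8.89, 6.52 and 6.53 TPM in RG mice, 13.1, 11.3, 13.8, 24.5 and 13.9 TPM in LGG mice and 6.22, 5.04, 4.60, 7.51 and 5.96 TPM in PBS mice. It rose by 1.22 in LGG (SE 0.236, adjusted p = 0.000162), and the RG values overlapped with those of both other groups.

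The 3 lower genes were Med21 and Med31 of the middle module and Med28. Med21, which joins with Med7 in a hinge between modules (chromosome 6, 146642547 to 146650732), was at 55.0, 35.7, 39.1, 81.3 and 54.2 TPM in RG mice, 34.6, 26.3, 37.8, 27.7 and 42.4 TPM in LGG mice and 126, 61.8, 73.1, 52.7 and 53.5 TPM in PBS mice. Every LGG mouse was below every PBS mouse, and RG mice reached into both ranges. The LGG difference was -1.04 (SE 0.250, 95% interval -1.57 to -0.51, adjusted p = 0.00116). Med31, a small conserved subunit near the polymerase (chromosome 11, 72211724 to 72215592), was at 17.7, 11.6, 11.8, 26.4 and 24.2 TPM in RG mice, 13.4, 11.3, 13.5, 8.79 and 13.2 TPM in LGG mice and 29.9, 19.7, 29.6, 18.9 and 20.8 TPM in PBS mice. Its LGG difference was -0.91 (SE 0.226, 95% interval -1.39 to -0.44, adjusted p = 0.00148), again without overlap between LGG and PBS. Med28 (chromosome 5, 45520229 to 45529276) was at 34.9, 30.6, 31.1, 36.3 and 24.7 TPM in RG mice, 30.5, 24.1, 29.4, 27.1 and 31.4 TPM in LGG mice and 45.4, 37.5, 40.5, 34.7 and 36.8 TPM in PBS mice. Its fall in LGG was smaller, at -0.44 (SE 0.130, 95% interval -0.71 to -0.16, adjusted p = 0.00596).

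Med10 and Med30 were near 0 in the same comparison. Med10, of the middle module, was at 25.8, 29.2, 22.1, 23.6 and 17.6 TPM in RG mice, 23.9, 20.7, 24.1, 20.5 and 23.2 TPM in LGG mice and 33.0, 24.8, 27.3, 21.3 and 18.7 TPM in PBS mice. Med30, assigned to the head, was at 45.3, 42.7, 37.0, 46.7 and 23.0 TPM in RG mice, 39.1, 32.4, 39.9, 33.7 and 40.5 TPM in LGG mice and 51.4, 43.6, 42.0, 35.7 and 42.3 TPM in PBS mice. The groups overlapped for both genes. The LGG difference was -0.13 for Med10 (95% interval -0.46 to 0.21, adjusted p = 0.485) and -0.20 for Med30 (95% interval -0.57 to 0.16, adjusted p = 0.298). These intervals do not reach the rise of Med15 and Med16, but few listed genes lie in the stretch between. Exons of Med10 are overlapped over 92.8% of their bases by the opposite-strand gene Gm26819, and those of Med31 over 26.3% by 4930563E22Rik. Whether reads were counted by strand is not given in the sources used here, so reads of such pairs may not have been told apart.

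**Figure D3:**
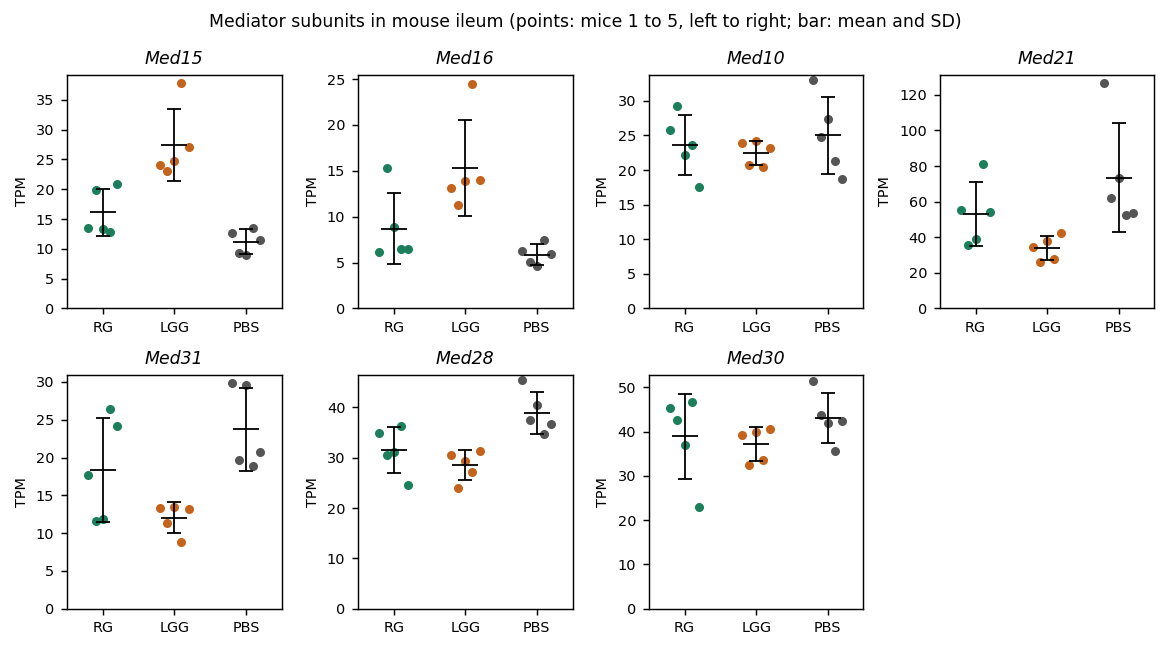
TPM of the 7 Mediator subunits in each mouse of the RG, LGG and PBS groups, with the mean and SD of 5 mice as bars. The LGG points are the highest for Med15 and lie below all PBS points for Med21, Med31 and Med28, while the 3 groups overlap for Med10 and Med30.

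The order of the subunits differed between the groups. Med15 was above Med31 in 2 of 5 RG mice and in 5 of 5 LGG mice, and Med31 was above Med15 in 5 of 5 PBS mice. The log2 ratio of Med15 to Med31 within a mouse was -0.14 ± 0.672 in RG, 1.18 ± 0.525 in LGG and -1.08 ± 0.465 in PBS (SD, n = 5). A ratio within a library is free of the scaling between libraries, but it shows unequal change and not which of the 2 genes moved. The pair was chosen after its values were seen, so no test is given. Over all 7 subunits, Med30, Med21 and Med28 held the highest means in LGG (37.1, 33.7 and 28.5 TPM), whereas Med21, Med30 and Med28 did in PBS (73.5, 43.0 and 39.0 TPM). In LGG the Med21 values overlapped with those of the other two, and in PBS every Med21 value was above those of Med30 and Med28. The 5 small subunits together summed to 166 ± 31.1 TPM in RG, 134 ± 16.5 TPM in LGG and 204 ± 49.4 TPM in PBS, and the 2 tail subunits to 24.8 ± 6.62 TPM in RG, 42.7 ± 11.2 TPM in LGG and 17.1 ± 3.16 TPM in PBS.

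**Figure D4:**
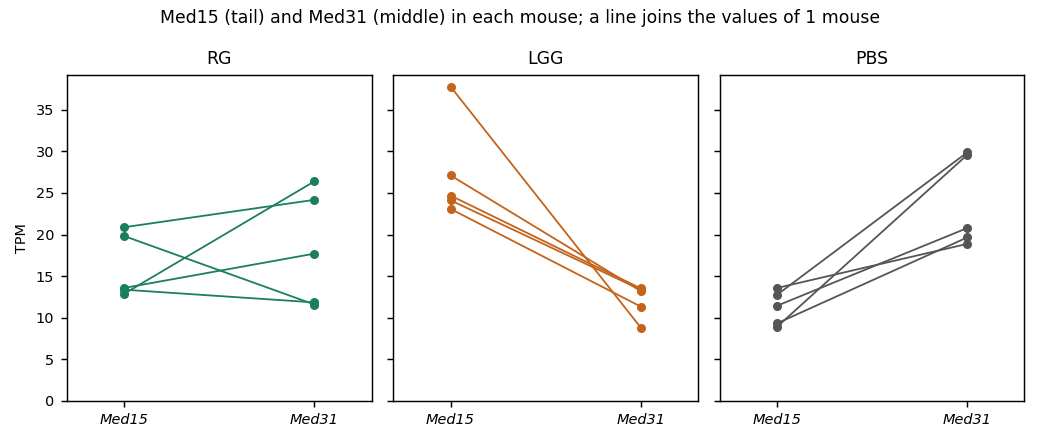
TPM of Med15 (left) and Med31 (right) of each RG, LGG and PBS mouse, joined by a line for 1 mouse. Lines run both ways among the RG mice, down in all 5 LGG mice and up in all 5 PBS mice.

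The promoters of a rising and of 2 falling Mediator genes are shown because the 3 genes moved in different directions. They are the 300 bases from 250 before to 50 after the start given by RefSeq on GRCm38.p6, read 5′ to 3′ on the strand of the gene. Capitals mark matches, on either strand, to the motifs searched, which were CCGGAAG (ETS), AAGATGGC (YY1), CACGTG (E-box), GGGCGG (GC box), the CCAAT box by those letters and the TATA box as TATAAA. The RefSeq start of Med15 lies inside the gene as given above. In Med28 the TATAAA match and the CCAAT match share a base.
Med15, chr16:17722898-17723197, minus strand: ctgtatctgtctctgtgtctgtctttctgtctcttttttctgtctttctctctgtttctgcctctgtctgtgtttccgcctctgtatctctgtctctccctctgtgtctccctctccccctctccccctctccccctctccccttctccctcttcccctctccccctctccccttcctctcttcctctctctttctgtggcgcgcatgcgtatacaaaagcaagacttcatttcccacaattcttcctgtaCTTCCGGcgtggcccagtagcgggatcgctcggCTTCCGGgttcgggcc
Med31, chr11:72215543-72215842, minus strand: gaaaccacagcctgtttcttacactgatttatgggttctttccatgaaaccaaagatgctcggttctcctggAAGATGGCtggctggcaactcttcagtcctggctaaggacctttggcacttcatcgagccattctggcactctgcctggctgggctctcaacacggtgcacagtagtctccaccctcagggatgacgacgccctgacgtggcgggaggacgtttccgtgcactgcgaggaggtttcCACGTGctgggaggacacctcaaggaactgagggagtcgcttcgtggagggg
Med28, chr5:45519979-45520278, plus strand: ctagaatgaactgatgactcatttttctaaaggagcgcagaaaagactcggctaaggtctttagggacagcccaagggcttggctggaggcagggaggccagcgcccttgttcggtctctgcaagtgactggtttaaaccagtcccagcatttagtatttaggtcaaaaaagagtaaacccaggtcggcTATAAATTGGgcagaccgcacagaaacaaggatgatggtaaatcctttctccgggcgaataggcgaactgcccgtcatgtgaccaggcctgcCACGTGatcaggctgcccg

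Of the 20 genes, 17 had a promoter in the RefSeq table. The ETS letters were in Med15 and Kat7 among these 17 and in 9.12% of 27025 promoters of the same length, and the YY1 letters were in Med31 and Kdm5c and in 2.88% of all. The E-box was in the lower genes Med28 and Med31, not in the lower gene Med21, and in 7.24% of all. The GC box was in 8 of the 17 and in 35.9% of all, CCAAT in 4 and in 37.9%, and TATAAA in 3 and in 14.2%. Med31 and Kdm5c, which share the YY1 letters, moved in opposite directions in LGG. A match describes the letters of these windows and is not evidence of a bound site.

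The split within Mediator ran along the size of the genes. The coding sequences of Med10, Med21, Med28, Med30 and Med31 are 393 to 534 bases long, and those of Med15 and Med16 are 2367 and 2592 bases. Of the 827 tested genes with a coding sequence of up to 600 bases, 53.4% were lower in LGG and 4.47% were higher, and of the 609 with more than 2400 bases, 0.493% were lower and 81.0% were higher. The coding sequences of the 12 tested chromatin regulators are 1155 to 4851 bases long. Of the 1276 genes with more than 1200 and up to 2400 bases, 77.9% were higher. Of the 809 with more than 600 and up to 1200 bases, where Smarcb1 falls, 50.3% were. A large share of higher genes was thus not particular to the chromatin regulators. Across 3521 genes, which are not independent, the LGG difference and the coding length had a Spearman correlation of 0.547. Med28 is long by its transcript of 4560 bases but not by its coding sequence of 534 bases, and it has other coding transcripts of 734 and 636 bases. When the trend over coding length and GC content was removed from each library, 16 of the 19 genes were higher in LGG, beside 69.4% of all genes tested, and none was lower, beside 10.1%. Med28 was then at 0.44 (adjusted p = 0.000626), Med21 at 0.34 (adjusted p = 0.102) and Med31 at 0.09 (adjusted p = 0.687). The LGG difference of Med15 minus that of Med31, both on the log2(TPM + 1) scale, was 0.38 in place of 2.13. With its pseudocount this measure is not the same as the TPM ratio within a mouse given above. When the trend over transcript length and GC content was removed, 16 genes were higher, beside 65.9% of all genes tested, and Med28 (-0.76) and Hdac7 (-0.70) were lower, beside 10.9%. Whether the trend with length came from the tissue, the RNA or the libraries was not tested.

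**Figure D5:**
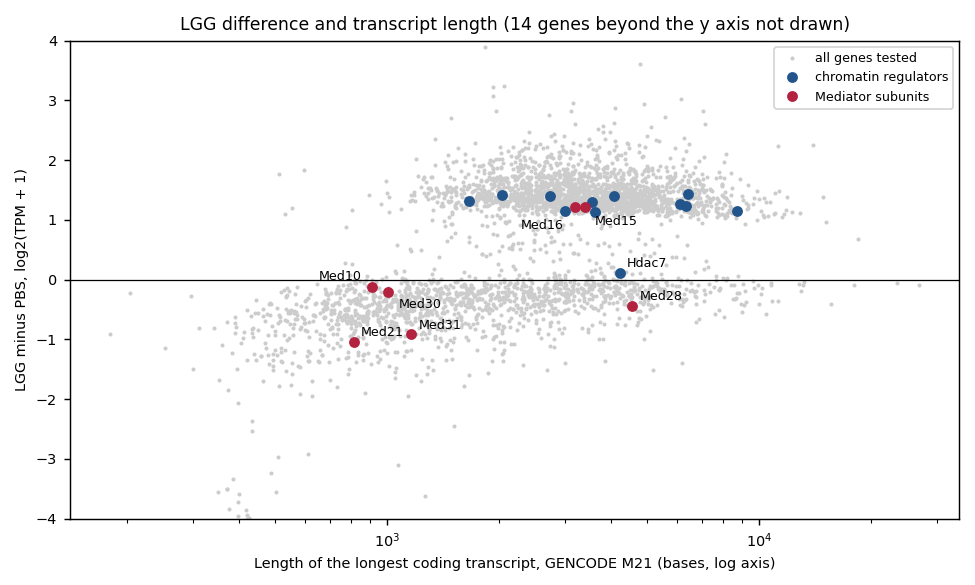
LGG minus PBS on the log2(TPM + 1) scale against the length of the longest coding transcript (bases, log axis) for all genes tested (grey), chromatin regulators (blue) and Mediator subunits (red). Few genes lie between 0.2 and 1.0, the chromatin regulators other than Hdac7 lie above that stretch with Med15 and Med16, and the other 5 Mediator subunits lie below it.

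Markers of several cell types and the scaling also moved with the LGG group. None of the 10 T cell and leukocyte markers and none of the 8 smooth muscle markers tested was called in LGG against PBS. Markers of Paneth cells, the antimicrobial secretory cells of the crypt, summed to 54892 ± 5170 TPM in RG mice, 5572 ± 4647 in LGG mice and 56592 ± 5499 in PBS mice, for 11 of 11 genes. LGG mouse 4, the highest LGG mouse in most chromatin regulators, had the lowest of these sums, 1071 TPM, beside 2152 to 12765 TPM in the remaining LGG mice. The 12 listed of 15 markers of mature enterocytes summed to 3761 ± 304 TPM in RG mice, 10622 ± 1928 in LGG mice and 2072 ± 292 in PBS mice, and none of these markers averaged 0 in any group. The 4 listed of 9 goblet cell markers summed to 13885 ± 3451 TPM in RG mice, 7351 ± 2452 in LGG mice and 19441 ± 1904 in PBS mice, with all 4 lower in LGG than in PBS and 1 lower in RG. The 3 listed of 14 markers of cycling and crypt cells, Mcm2, Mcm6 and Axin2, summed to 32.6 ± 13.1 TPM in RG mice, 41.0 ± 5.72 in LGG mice and 16.1 ± 3.77 in PBS mice. All 3 were higher in LGG than in PBS, with a median of 1.19, and Mcm6 and Axin2 were higher in RG. The part of these cell types in the values of the chromatin and Mediator genes was not tested. In bulk tissue, fewer cells of a type and less RNA per cell cannot be told apart. TPM of 1 gene also depends on that of all others in a library. With median-of-ratios scaling, in which each library is divided by its median ratio to the average library, the median of all genes tested in LGG against PBS was 0.24 in place of 1.17. Under that scaling 3 genes rose (Kdm5c by 0.44, Ncoa4 by 0.39 and Smarcd2 by 0.39) and 5 fell (Med21 by -2.05, Med31 by -1.88, Med28 by -1.44, Med30 by -1.21 and Med10 by -1.12), beside 33.4% of all genes tested that rose and 39.8% that fell. The 13 genes higher on the TPM scale kept a positive difference, of 0.18 to 0.44. Upper-quartile scaling gave 7 higher, beside 40.8% of all genes tested, and 5 lower, beside 39.3%, with a median of all genes of 0.30. Both scalings took their factors from the listed genes alone, which were split by the LGG difference. Their results thus depend on how those genes were chosen, and they cannot show which scale is the right one.

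RG changed fewer of these genes. Against PBS, 4 of the 19 were higher, which is 21.1% beside 22.8% of all genes tested, and none was lower, beside 4.08% of all genes tested, with 26.9% of all genes changed in either direction. At an unadjusted p under 0.05 there were 11 of 19, beside 49.8% of all genes tested. The 4 were Smarcd2 (0.67, SE 0.204, adjusted p = 0.0334), Chd1l (0.61, SE 0.182, adjusted p = 0.0319), Kat7 (0.61, SE 0.200, adjusted p = 0.0395) and Brd7 (0.56, SE 0.180, adjusted p = 0.0381), and in each the 5 RG values lay above the 5 PBS values, as in 13.0% of all genes tested. None of the 19 had all RG values below all PBS values, which held for 2.72% of all genes tested. The median difference of the 19 was 0.48 and that of all genes was 0.38. All 12 chromatin regulators had a difference above 0, from 0.39 to 0.67, as did 67.8% of all genes tested, and Hdac7 turned to -0.079 when PBS mouse 1, RG mouse 2 and RG mouse 5 were left out together. Kdm5c at 0.53 (95% interval 0.10 to 0.97, adjusted p = 0.0600), Smarca5 at 0.58 (adjusted p = 0.0603) and Smarcb1 at 0.54 (adjusted p = 0.0620) were next among the chromatin regulators and did not pass.

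In RG none of the 7 Mediator subunits passed. Med15 was at 0.48 (95% interval 0.10 to 0.86, adjusted p = 0.0558), Med16 at 0.44 (adjusted p = 0.141), Med28 at -0.30 (95% interval -0.58 to -0.03, adjusted p = 0.0767), Med21 at -0.44 (adjusted p = 0.159) and Med31 at -0.40 (adjusted p = 0.154). RG and LGG are compared with the same PBS libraries, so the likeness of their signs is not independent evidence. The 4 RG calls depended on which library was left out. Smarcd2 passed in 11 of the 15 fits that leave out 1 library, Chd1l in 10, Brd7 in 9 and Kat7 in 5. When PBS mouse 3, PBS mouse 5, RG mouse 2 or RG mouse 3 was left out, none of the 19 passed. Leaving out PBS mouse 1 gave 1 gene, RG mouse 5 gave 2, LGG mouse 4 gave 7 and RG mouse 4 gave 9. With median-of-ratios scaling none was higher, beside 1.27% of all genes tested, and Med28 was lower (-0.67, adjusted p = 0.0174), beside 18.2%, with the median of all genes at 0.04. With upper-quartile scaling, too, none was higher and 1 was lower, beside 3.77% and 13.4% of all genes tested. The balance of RG calls over all genes, 22.8% higher and 4.08% lower on the TPM scale, was thus reversed under both scalings. Both take their factors from the listed genes alone.

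Between the 2 bacteria, RG mice had the lower level of most chromatin regulators. In RG against LGG, 13 of the 19 genes were lower, beside 53.5% of all genes tested, and 1 was higher, beside 8.19% of all genes tested, with 61.6% changed in either direction. The lower genes were the same 13 that were higher in LGG than in PBS, and the comparisons share the LGG libraries. Ncoa4 had the strongest difference at -0.99 (SE 0.167, 95% interval -1.34 to -0.63, adjusted p = 0.000133), followed by Hdac1 at -0.91 (adjusted p = 0.00242) and Kdm5c at -0.90 (adjusted p = 0.00128). In 4 genes, Ncoa4, Kdm5b, Kdm5c and Med15, all 5 RG values were below all 5 LGG values, as in 36.4% of all genes tested. The median difference was -0.69 for the 19 and -0.72 for all genes.

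Med21 was the gene that was higher in RG, by 0.60 (SE 0.250, 95% interval 0.07 to 1.13, adjusted p = 0.0471), with overlapping groups. This call was lost in 9 of the 15 fits that leave out 1 library, and the adjusted p over these fits was 0.0182 to 0.143. Med31 was at 0.51 and did not pass (95% interval 0.03 to 0.99, adjusted p = 0.0609). Hdac7 was at 0.36 (95% interval -0.32 to 1.05, adjusted p = 0.350), Med28 at 0.13, Med10 at 0.05 and Med30 at 0.03, none of which passed. Median-of-ratios scaling, with factors from the listed genes alone, turned the split round. It gave 6 higher, beside 34.6% of all genes tested, and 1 lower (Ncoa4, -0.34), beside 16.8%. The median of all genes was then -0.10. Upper-quartile scaling gave 6 higher and none lower, beside 35.4% and 14.1%. Under median-of-ratios scaling the 6 were Med10, Med21, Med28, Med30, Med31 and Hdac7. Brd7 and Chd1l changed sign there, to 0.05 and 0.04.

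Partners of the same complexes outside the name rule were taken from lists of 189 genes, of which 21 had values and all 21 were tested. In RG against PBS 9 of them were higher and 2 lower, in LGG against PBS 14 were higher and 3 lower, and in RG against LGG none was higher and 14 were lower. The shares of all genes tested, given above, were 22.8% higher and 4.08% lower, 54.7% and 16.5%, and 8.19% and 53.5%. The partners' median differences were 0.49, 1.23 and -0.73 in these comparisons, beside 0.38, 1.17 and -0.72 for all genes tested. With either other scaling the direction of the RG calls turned, with none of the 21 partners higher and 5 lower than in PBS, and 5 higher and 1 lower than in LGG. None passed in RG against PBS with the replicate block or when mouse 1 of PBS and mice 2 and 5 of RG were left out together, and 0 to 16 did with 1 library left out. The RG changes named below are therefore those of the TPM scale with all 15 libraries. The Polycomb, NCoR and CoREST, and INO80 and SRCAP lists had no gene with values and are not analysed here. In LGG, the largest subunits of RNA polymerase II rose, Polr2a by 1.45 and Polr2b by 1.19, and the small subunits Polr2k and Polr2h fell, by -0.84 and -0.43, while Polr2e at -0.12, Polr2i at -0.32 and Polr2l at -0.24 did not pass. With the trend over transcript length, alone or with GC content, or over coding length removed, 18 or 19 partners were higher in LGG and none was lower, so these falls and that of Dpy30 were lost. Polr2k was at 104 ± 46.1 TPM in RG, 67.1 ± 10.3 TPM in LGG and 121 ± 24.9 TPM in PBS, and Polr2a at 15.1 ± 5.61 TPM in RG, 26.7 ± 6.73 TPM in LGG and 8.96 ± 1.21 TPM in PBS. The coding sequence of Polr2a is 5910 bases long and that of Polr2k is 297 bases. From the same list, Nelfcd rose by 1.37, Nelfb by 1.23 and Supt6 by 1.23 in LGG. Nelfcd also rose in RG, by 0.63 (adjusted p = 0.0294). Nelfb at 0.48 (adjusted p = 0.0520) and Supt6 at 0.50 (adjusted p = 0.0612) did not pass in RG.

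Partners of Hdac1 in the NuRD corepressor rose in LGG as Hdac1 did: Mta2 by 1.48, Gatad2a by 1.38 and Mta3 by 1.28. Mta2 and Gatad2a also rose in RG, by 0.69 and 0.52. The SWI/SNF subunits Dpf2 and Actb rose in LGG by 1.33 and 1.86 and in RG by 0.57 and 0.72. Actb is also the cytoskeletal actin, so its level is not that of a chromatin subunit alone. Of the partners in complexes that methylate lysine 4 of histone H3, Ash2l rose by 1.27 in LGG and by 0.49 in RG. Dpy30, with a coding sequence of 297 bases, fell by -0.64 in LGG (adjusted p = 0.000815). In RG it was at -0.41 with overlapping groups, and its adjusted p of 0.04999 was barely under the threshold. Pagr1a was lower in RG (-0.70, adjusted p = 0.0371) and at -0.44 in LGG without passing (adjusted p = 0.0879). The histone H3 lysine 9 methyltransferase Ehmt2 rose by 1.18 in LGG and by 0.55 in RG. Usp22, the deubiquitinase of the SAGA coactivator, rose by 1.50 in LGG and by 0.60 in RG. Tada3, also listed as an acetyltransferase partner, rose by 1.19 in LGG and was at 0.44 in RG without passing (adjusted p = 0.0621).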

How the data were processed

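The values were deposited by the authors as TPM, for 4178 genes and 15 libraries in 1 table. Total RNA was purified with an RNeasy kit and made into NEBNext Ultra II libraries, per the labels' protocols. GRCm38 (mm10) is the build in the submitters' processing notes. The sources used here do not state the aligner, the counting tool or its use of strand. TPM hold no read depth, so no counting interval or floor can be given.

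Identifiers were matched to GENCODE M21 (GRCm38), where 4173 of 4178 were found, which gave coordinates (1-based), transcript lengths and coding lengths. Genes at a TPM of at least 1 in 5 or more libraries were tested, 3530 in all. limma-trend with robust shrinkage (limma 3.58.1, R 4.3.3) was fitted to log2(TPM + 1), with a pseudocount of 1, on all 15 libraries in 1 model with 3 group means. All tests were two-sided, p-values were adjusted by Benjamini and Hochberg over the 3530 genes, and the threshold was 0.05. A difference on this scale understates the change of low genes, and every adjusted p is limma's. Each mouse is a separate animal, and the labels give no cage, litter, sex or batch. The fit was tested on simulated data.

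The genes, the lists of partners and markers, the motifs and the alternatives were chosen with earlier results of these data known. The rule for naming genes with values took, in each family and comparison, up to 4 called genes of smallest p and every gene called lower. It also took the 3 most abundant genes of each family, a set of fixed genes, and up to 3 partners of smallest p per list. As these genes were few, all 20 are given, and so are all 21 partners tested, whatever their p. The alternatives were median-of-ratios and upper-quartile scaling, a pseudocount of 0.1, no filter, a mean TPM of at least 5, only the 2 groups compared, a replicate block, removal of trends over length and GC content (spline with 4 degrees of freedom), and leaving out libraries. Those over transcript length alone and over coding length were chosen after the data were seen, as were the bounds of the stretch between 0.2 and 1.0.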

Additional observations from a re-analysis of the deposited data

Results flagged for a closer look

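Single values far from the other 4 mice of their group were found in 12 of 60 combinations of gene and group. The cut-off is set for about 1 in 20 with normal values. Genes of 1 library are not independent and TPM were not checked for normality, so no excess over chance is drawn from this. LGG mouse 4 was high for Med15 (37.8 TPM), Med16 (24.5 TPM), Kdm5c (54.8 TPM), Kat7 (32.4 TPM) and Smarca4 (37.0 TPM). RG mouse 2 was high for Smarcd2 (56.4 TPM), Smarcb1 (36.7 TPM), Smarca5 (24.4 TPM) and Brd7 (18.8 TPM). PBS mouse 1 was high for Med21 (126 TPM) and PBS mouse 3 was low for Smarcd2 (14.2 TPM). RG mouse 5 was high for Brd8dc (0.626 TPM), which was too low to be tested. The part of these animals in the group differences is given by the fits that leave out 1 library.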

How the results depend on the processing

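The 16 genes called in LGG against PBS were 16 in each of the 15 fits that left out 1 library. The median of the 19 was 1.06 to 1.28 there, 0.27 with median-of-ratios scaling (8 called), 0.33 with upper-quartile scaling, 0.75 without the trend over length and GC content, 0.79 without that over length alone and 0.66 without that over coding length and GC content.

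In RG against PBS, 0 to 9 of the 19 were called with 1 library left out (median 0.31 to 0.54). With either other scaling 1 was called (median 0.13 with median-of-ratios scaling). None was called with any of the 3 trends removed, with only the 2 groups compared, or with the replicate block, in which mouse number entered as a block. None was called either when 3 libraries, PBS mouse 1 and mice 2 and 5 of RG, were left out together. The library names of PBS mouse 1 and RG mouse 5 differ in form from the rest, for a reason not given in the sources used here. RG mouse 2 had the high leukocyte marker sum given above. No LGG library was in that set, though the lowest correlation of 2 libraries of a group was 0.905 in LGG, 0.908 in RG and 0.974 in PBS. Deviations of mice with the same number had correlations of -0.29 to 0.14 in RG and PBS. The range was -0.46 to 0.29 in LGG and PBS and -0.32 to 0.22 in RG and LGG. As the labels give no cage, litter or batch, whether mice of the same number shared one is not known. All genes called numbered 948, and 40 to 1594 with 1 library left out, 605 with upper-quartile scaling, 383 with only the 2 groups compared, 174 with the replicate block, 188, 273 and 137 without the trends over length and GC content, length alone and coding length, and 0 without the 3 libraries. Partners called numbered 11 (9 higher, 2 lower), and 0 to 16 with 1 library left out, 5 (all lower) with either other scaling, 2 with only the 2 groups compared, 0 with the replicate block, 1, 1 and 0 without these trends, and 0 without the 3 libraries.

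In RG against LGG, 7 genes were called with median-of-ratios and 6 with upper-quartile scaling (medians -0.066 and -0.029), and 6 partners with either (5 higher, 1 lower), in place of 14, all lower. The median was -0.39 without the trend over length and GC content and -0.38 without that over coding length, and -0.81 to -0.54 with 1 library left out.

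Signs turned in single genes. In RG against PBS these were, with the trends over length and GC content, length alone and coding length removed in turn, Med21 (0.21, 0.053, 0.050), Med10 (0.38, 0.39, 0.35) and Med30 (0.37, 0.25, 0.21), and Med28 with the last (0.061). Without the 3 libraries Med10 was at 0.058, Med30 at 0.067 and Hdac7 at -0.079, and with 1 library left out Med10 was at -0.17 to 0.032 and Med30 at -0.25 to 0.00104. In LGG against PBS the same trends gave Med21 (0.75, 0.21, 0.34), Med10 (0.94, 0.97, 0.96), Med30 (1.07, 0.75, 0.75) and Hdac7 (-0.70, -0.37, -0.58), the last gave Med28 at 0.44 and Med31 at 0.094, and median-of-ratios and upper-quartile scaling gave Hdac7 at -0.62 and -0.57. In RG against LGG the trends gave Med21 (-0.54, -0.16, -0.29), Med10 (-0.57, -0.58, -0.61) and Med30 (-0.70, -0.50, -0.54), the last gave Med28 at -0.38 and Med31 at -0.10, the 2 scalings gave Chd1l (0.039, 0.073) and Brd7 (0.046, 0.082), the 3 libraries left Hdac7 at -0.22, and with 1 library left out Med10 was at -0.023 to 0.15 and Med30 at -0.043 to 0.20. The cause was not tested.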
